A study of Mus musculus with 4 samples.

Results

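Loricrin and 8 other genes of the outermost epidermis were followed in whole skin of newborn mice, at postnatal day 0, of strain FVB/N. One group was labelled loricrin knockout and the other wildtype, and total RNA of each was hybridised to 2 Affymetrix array types that carry different probe sets, with 1 array per genotype and type. The labels call the second-type array of each genotype a replicate, but do not say whether it held RNA of other animals. How the loricrin allele was made, and whether RNA of several animals was pooled, is not given in the sources used here. The 9 genes are loricrin (Lor), filaggrin (Flg), repetin (Rptn), Crct1, Kprp, Krtdap, suprabasin (Sbsn), cornifelin (Cnfn) and corneodesmosin (Cdsn). Members were all probe sets whose platform gene symbol was exactly one of these, whatever their signal. The 9 genes, of 13674 named genes in all, had 12 of 24833 probe sets. The first array type held 9 probe sets of 6 of them among 12422, and the second 3 probe sets of 3 of them among 12411. None of the 9 genes had a probe set on both types, so no member ratio was repeated by a second pair of arrays. With 1 array per genotype no test within a type was possible, and no ratio below carries a replicate error.

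In the last step of epidermal differentiation, granular keratinocytes become flat dead corneocytes. Beneath their membrane, transglutaminases cross-link proteins into the cornified envelope, of which loricrin is the main component. Filaggrin and repetin belong to the fused S100 proteins. Filaggrin is stored in keratohyalin granules as a long precursor, is cleaved into units that bundle keratin filaments, and is later broken down to the amino acids that keep the stratum corneum moist. Corneodesmosin is secreted by granular cells and joins the modified desmosomes that hold corneocytes together until they are shed. Cornifelin is an envelope protein, suprabasin and Krtdap (keratinocyte differentiation-associated protein) are secreted products of suprabasal keratinocytes, and Kprp and Crct1 are, by their names, a keratinocyte proline-rich and a cysteine-rich protein.

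By the RefSeq annotation of GRCm38.p6, used here for names and neighbours only since the arrays follow no genome build, 5 of the members lie on chromosome 3 in the order Lor, Kprp, Crct1, Flg and Rptn. This stretch is part of the epidermal differentiation complex and holds 49 protein-coding genes from Lor to Rptn. Flg and Rptn are separated by 1 gene, Hrnr, and Crct1 and Flg by 4. On chromosome 7, Sbsn and Krtdap are separated by Dmkn alone, and Cnfn lies on the same chromosome with 173 protein-coding genes between it and Krtdap. Cdsn lies on chromosome 17. Start-site windows of 300 bases, from 250 before to 50 after a transcription start, were found for 7 of the 9 members in a RefSeq promoter table of GRCm38.p6. The motif TGANTCA, with N as any base, reads the same on both strands. It is looser than the core of AP-1 factors (which act on many genes of epidermal differentiation), where N is G or C. It was present in windows of 5 of these 7, namely Lor, Flg, Rptn, Sbsn and Krtdap. The share over all 32851 windows of this length was 7.81%. Lor and Krtdap held TGAGTCA, and Sbsn held TGAATCA and TGAGTCA. Flg held TGAATCA and Rptn TGATTCA, which are not that core. TATAAA, searched on both strands, was present in 4 of the 7 (Lor, Flg, Rptn and Krtdap) and in 13.6% of all windows. A GC box, GGGCGG on either strand, was present in 1 of the 7 (Cnfn) and in 35.7% of all windows. The motifs do not overlap in these windows, and a match is a run of letters, not a binding site. The 4 windows that hold both TGANTCA and TATAAA are shown because they belong to measured members of the first array type whose ratios, given below, range from the lowest to the highest of the group. They run 5′ to 3′ on the gene's strand, with matches in capitals.
Lor, chr3:92083093-92083392, minus strand: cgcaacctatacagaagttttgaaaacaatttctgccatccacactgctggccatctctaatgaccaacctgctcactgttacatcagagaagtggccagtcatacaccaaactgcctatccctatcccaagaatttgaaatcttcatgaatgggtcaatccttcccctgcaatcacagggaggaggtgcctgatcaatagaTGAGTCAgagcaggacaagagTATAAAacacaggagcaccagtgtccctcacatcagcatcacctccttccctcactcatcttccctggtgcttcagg
Flg, chr3:93273296-93273595, plus strand: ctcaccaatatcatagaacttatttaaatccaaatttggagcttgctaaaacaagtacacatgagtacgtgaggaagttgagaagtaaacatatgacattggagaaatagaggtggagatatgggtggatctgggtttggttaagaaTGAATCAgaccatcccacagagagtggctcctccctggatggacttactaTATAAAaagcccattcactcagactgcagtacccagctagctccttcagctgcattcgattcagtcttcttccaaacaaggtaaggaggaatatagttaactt
Rptn, chr3:93393449-93393748, plus strand: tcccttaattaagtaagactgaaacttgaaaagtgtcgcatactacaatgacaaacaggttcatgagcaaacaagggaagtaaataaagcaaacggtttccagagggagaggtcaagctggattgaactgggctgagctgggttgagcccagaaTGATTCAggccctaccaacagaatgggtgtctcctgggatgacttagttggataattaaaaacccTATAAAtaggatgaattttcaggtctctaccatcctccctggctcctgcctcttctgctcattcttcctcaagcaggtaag
Krtdap, chr7:30787655-30787954, plus strand: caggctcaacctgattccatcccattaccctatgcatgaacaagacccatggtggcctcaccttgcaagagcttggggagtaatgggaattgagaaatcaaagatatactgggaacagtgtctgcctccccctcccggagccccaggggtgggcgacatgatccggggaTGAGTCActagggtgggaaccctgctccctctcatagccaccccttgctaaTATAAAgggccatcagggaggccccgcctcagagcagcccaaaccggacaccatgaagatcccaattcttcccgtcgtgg
The TGANTCA match begins 48 bases before the start in Lor, 103 in Flg, 96 in Rptn and 81 in Krtdap, and the TATAAA match 27, 53, 31 and 30 bases before it.

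Loricrin was read first, as the check of the genotype label. Its probe set 92624_r_at had a signal of 2013 on the knockout array and 41225 on the wildtype array. On the wildtype array only 1 other probe set was brighter, and on the knockout array it held place 985 from the top of 12422. Knockout over wildtype gave a log2 ratio of -4.36, so the signal was 20.5-fold lower in knockout, at 4.88% of the wildtype signal. A floor of 77.6 separates low from measured signals on this array type (the mean of the 40th percentiles of its 2 arrays), and the knockout signal of loricrin lay well above it, brighter than 92.1% of probe sets on that array. The other loricrin probe set, 162324_at, read 12.4 in knockout and 27.3 in wildtype. Both lie below the floor, so this probe set gave no ratio. No loricrin probe set is listed for the second array type, and its genotype labels were therefore not checked by the targeted gene. Where these probes lie relative to the altered part of the gene is not given in the sources used here.

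**Figure D1:**
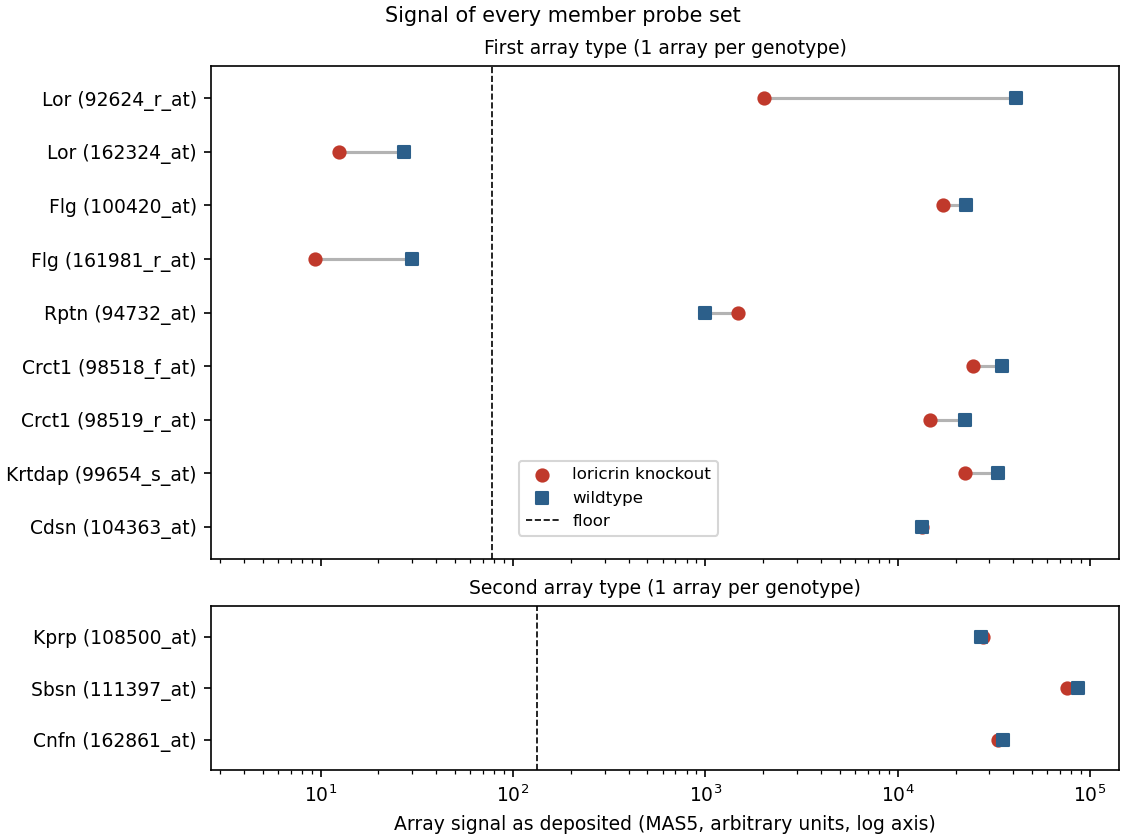
Deposited signal (arbitrary units, log axis) of the 12 member probe sets on the loricrin knockout (circles) and wildtype (squares) arrays of each array type, with 1 array per point and the floor as a dashed line (77.6 on the first type, 133 on the second). Loricrin probe set 92624_r_at spans 2013 to 41225, 1 probe set each of Lor and Flg lies below the floor on both arrays, and the other pairs lie close together.

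Loricrin's ratio was placed 2 from the lowest among the 7031 probe sets of the first type measured above the floor on both arrays. The lowest was 161628_r_at of fibulin 1 (Fbln1), a matrix protein gene, with 82.5 in knockout against 15721 in wildtype, a log2 ratio of -7.57. The other 3 Fbln1 probe sets did not share this value and had log2 ratios of 0.15, -0.22 and 0.08. Next above loricrin was a probe set of the collagen chain Col1a2, at -3.66, whose brighter probe set stood at 0.0069. By gene, taking the probe set of highest mean signal, the next lowest ratios after loricrin were those of the collagen chain Col1a1, at -3.17, and of the proteoglycan biglycan (Bgn), at -2.52. The suffix _r, which Fbln1's probe set shares with the bright loricrin probe set, marks probe sets that Affymetrix chose under relaxed rules. Across the first type, 161 such probe sets could be set against the brightest other probe set of their gene, and the ratios differed by a median of 0.36 and by at least 1 log2 unit in 12. Among 700 genes with 2 probe sets without the suffix the median difference was 0.29, and 31 differed by at least 1. Loricrin's ratio rests on 1 probe set of this kind.

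Of the 6 member genes on the first type, loricrin was the only one past the rule of size used here in place of a test, at least 2-fold in either direction. That rule was met by 2.09% of all 12422 probe sets (0.869% higher and 1.22% lower in knockout). Of the 3 member genes of the second type 0 passed, where 3.32% of all 12411 probe sets did (1.48% higher, 1.84% lower). At these background shares a count of 0 among the members other than loricrin is no result about them. The median log2 ratio of the 6 genes was -0.45, and -0.39 without loricrin, against 0.016 over the 7031 probe sets measured on both arrays. The median of the 3 second-type genes was -0.08 against 0.0054 over 6763 probe sets. These sets hold probe sets of any brightness. Apart from Lor and Rptn, the members were among the brightest 1% of their type, where the medians were -0.46 and -0.09 on the first and second type.

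Error between arrays could not be measured, but disagreement between probe sets of 1 gene could. For 838 genes with at least 2 probe sets above the floor on the first type, the log2 ratios of the brightest 2 differed by a median of 0.30, and by 0.78 at the 90th percentile. The same values were 0.32 and 0.87 over 1057 genes of the second type. For 995 genes above the floor on all 4 arrays, the ratios of the 2 types differed by a median of 0.30. Of the members, loricrin alone had a ratio whose size was above the 90th percentile of its type.

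The fused S100 genes gave ratios of opposite sign. Filaggrin probe set 100420_at read 17218 on the knockout array and 22621 on the wildtype array, which is a log2 ratio of -0.39. It was -0.0044 under loess, 0.09 under quantile normalization of the 2 arrays and 0.29 when they were scaled on bacterial spike-in probe sets. A second filaggrin probe set, 161981_r_at, read 9.34 and 29.8, below the floor on both arrays, and gave no ratio. Filaggrin is a gene of long near-identical repeats, and its single measured probe set does not tell how many of them a transcript holds. Repetin, which like filaggrin carries S100-type calcium-binding motifs and repeats and is an envelope precursor, read 1488 in knockout and 1001 in wildtype. Its log2 ratio was 0.57, or 1.49-fold, and 93.8% of probe sets measured on both arrays had a lower one. Repetin was positive under each of the 8 alternatives of scaling and floor, from 0.51 under loess and quantile normalization to 1.26 with spike-in scaling, where it passed 2-fold. It was also the least bright measured member, brighter than 84.3% of probe sets on the wildtype array, while each of the others there was brighter than at least 99.1%.

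Crct1 was the only member with 2 probe sets above the floor. Both were read on the same 2 arrays, so the pair is not a repeat by other arrays. Probe set 98518_f_at read 24567 against a wildtype signal of 35029, a log2 ratio of -0.51, and 98519_r_at read 14732 and 22515, a log2 ratio of -0.61. The 2 ratios differed by 0.10, below the median disagreement of 0.30 between probe sets, but by 0.31 and with opposite signs under quantile normalization. The suffix _f marks a probe set that can match several similar transcripts of a family. Krtdap, through 99654_s_at, read 22287 and 33377, a log2 ratio of -0.58 or 66.8% of wildtype. Its suffix _s marks probes shared by more than 1 transcript. Neither gene reached 2-fold. Krtdap stood at -0.13 under loess, -0.03 under quantile normalization and 0.10 with spike-in scaling. The brighter Crct1 probe set stood at -0.04, 0.13 and 0.18 under the same settings, and the other at -0.24, -0.18 and 0.08. Krtdap and the second Crct1 probe set thus turned positive under spike-in scaling alone among the scalings run, and the brighter Crct1 probe set under quantile normalization too.

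Corneodesmosin stood near 0 in the main scaling. Cdsn probe set 104363_at read 13436 in knockout and 13352 in wildtype, 101% of wildtype, with a log2 ratio of 0.0091. Under loess it was 0.32, 0.33 with quantile normalization and 0.70 with spike-in scaling, and with the median ratio set to 0 it was -0.0071. Among genes of the desmosome and corneodesmosome on the first type, 0 of 9 above the floor on at least 1 array passed 2-fold and the median log2 ratio was -0.18. Pkp2 was below it on both. The 2 brightest were Perp, a desmosome-associated membrane protein, at -0.49, and plakophilin 1 (Pkp1), a desmosomal plaque protein, at 0.012. Desmocollin 1 (Dsc1), a cadherin to which corneodesmosomes owe part of their adhesion, was named after its values were seen and stood at -0.85 and -0.53 on the first and second type. Of 6 such genes on the other type 0 passed, and their median was -0.34. The brightest there were Dsc1 and plakophilin 3 (Pkp3), the latter at -0.15.

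**Figure D2:**
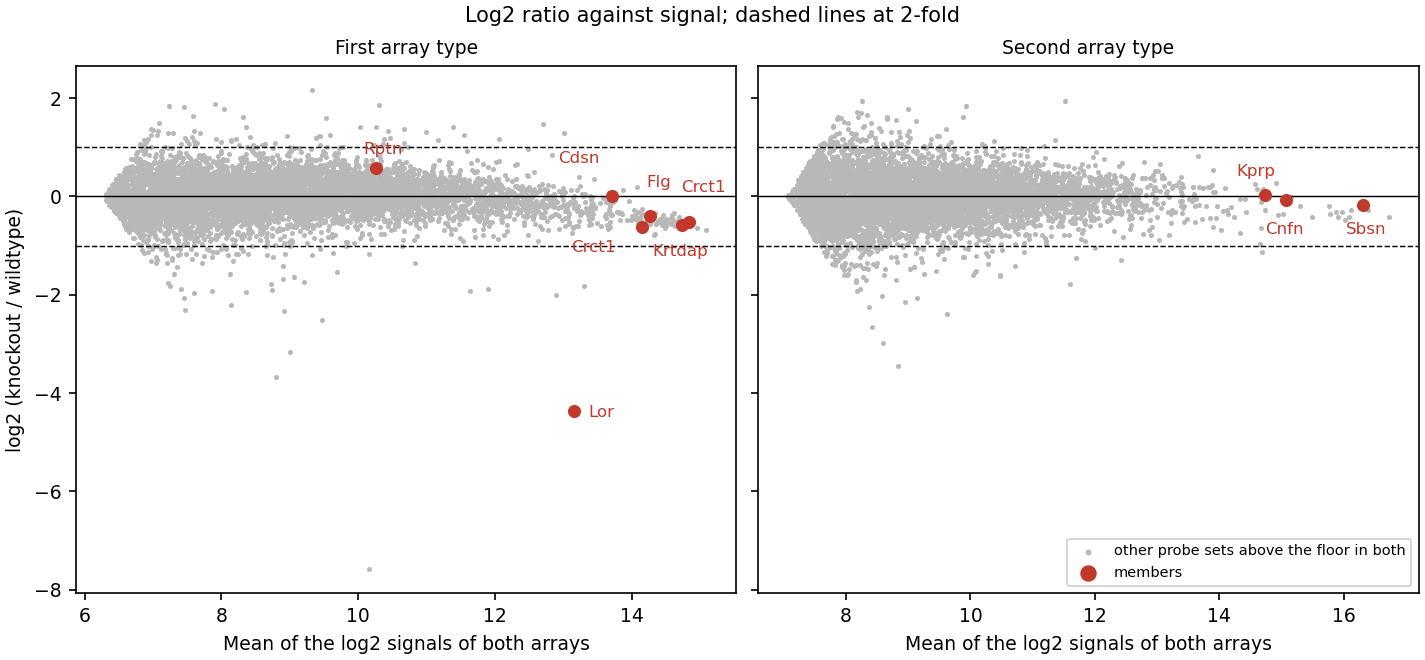
Log2 ratio of knockout over wildtype against the mean log2 signal of both arrays, for probe sets above the floor on both arrays of the first (left) and second (right) type, with members as labelled large points and dashed lines at 2-fold. Loricrin lies at -4.36, the isolated low point on the left is the Fbln1 probe set at -7.57, and the cloud bends below 0 at the bright end of the first type, where Flg, Crct1 and Krtdap lie, whose signs turn under spike-in scaling.

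The 3 members of the second type had log2 ratios from -0.17 to 0.03. Kprp, through 108500_at, read 27709 on the knockout array and 27152 on the wildtype array, which is a log2 ratio of 0.03. Suprabasin, through 111397_at, read 76326 and 86072, a ratio of -0.17, and was placed 3 from the brightest of 12411 probe sets on both arrays. Cornifelin, through 162861_at, read 33378 and 35333, a ratio of -0.08. All 3 ratios were smaller in size than the median disagreement of 0.32 between probe sets of that type. Suprabasin turned to 0.05 under loess, 0.08 under quantile normalization and 0.48 with spike-in scaling, and cornifelin to 0.07, 0.15 and 0.57. Sbsn and Krtdap, neighbours on chromosome 7, could not be set against each other because they were read on different arrays. Dmkn, the gene between them, was below the floor on both arrays of the first type.

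Because the Flg, Cdsn, Krtdap and both Crct1 probe sets above the floor and all 3 of the second type were among the brightest 1% by mean signal, their ratios were placed within that class. Loricrin enters it through its wildtype signal alone, so its place there was fixed by the choice of class and is not read. On the first type the class held 125 probe sets, members included, of which 119 had a negative log2 ratio. Their median was -0.46 and their interquartile range -0.55 to -0.34. The difference from this median was 0.06 for Flg and -0.06 for the brighter Crct1 probe set, both inside that range. It was -0.13 for Krtdap, with 15 of the 125 having a lower ratio, and -0.16 for the second Crct1 probe set, with 10 lower. Cdsn differed by 0.47 and had 119 of the 125 below it. In the second type's class the median was -0.09, 76 of 125 were negative and the interquartile range of -0.33 to 0.17 took in Kprp, Sbsn and Cnfn. The position of a signal within an array reflects the probes as well as the amount of RNA and does not rank the genes by abundance.

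**Figure D3:**
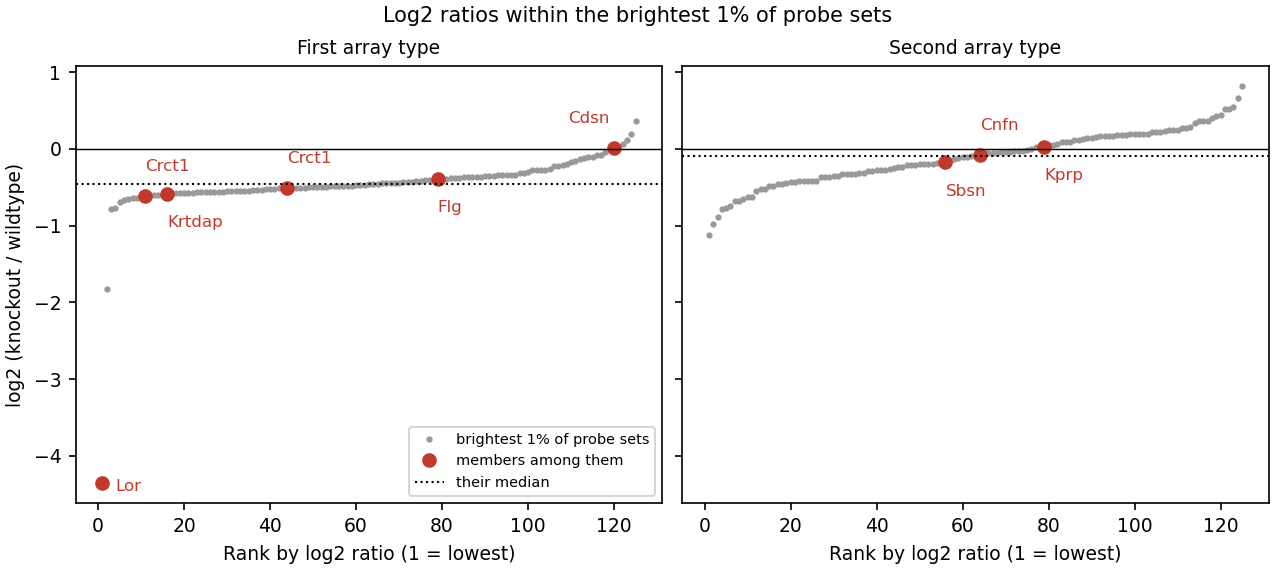
Log2 ratios of knockout over wildtype in rank order for the 125 brightest probe sets by mean signal of each array type, with members as large points and the median of the class as a dotted line. On the left the median is -0.46, with Crct1, Krtdap and Flg on its flat stretch and Cdsn near the top (Lor is in the class through its wildtype signal alone, which fixes its low place), and on the right, where it is -0.09, Sbsn, Cnfn and Kprp lie in the middle.

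The suprabasal keratins are made by the same cell layers. On the first type 2 of the 4 listed were negative and 2 positive, with a median log2 ratio of -0.13, and none passed 2-fold. Krt1 read 18713 against 26637 in wildtype, a log2 ratio of -0.51, and its partner Krt10 read 18479 and 25557, a ratio of -0.47. Krt2 read 233 against 196 in wildtype, a log2 ratio of 0.25. Krt77 read 6872 and 5933, a ratio of 0.21, and was at 0.19 on the other array type. The 2 negative keratins were thus the brighter ones, and the part of brightness in this split was not tested. The list gives no single scale for these layers. From Krt10, taken as 1 example, the members differed in log2 ratio by 0.07 for Flg, -0.04 for Crct1, -0.11 for Krtdap, 0.48 for Cdsn, 1.04 for Rptn and -3.89 for Lor. In bulk skin a smaller share of a cell type and less RNA per cell cannot be told apart.

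**Figure D4:**
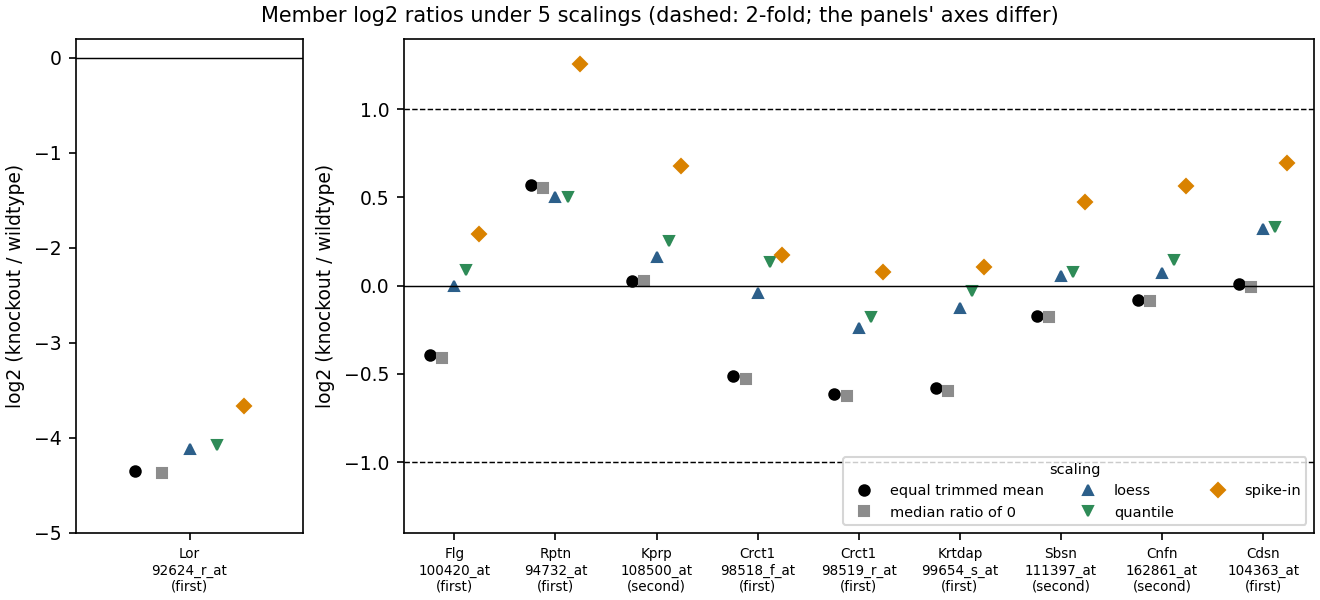
Log2 ratio of knockout over wildtype for the 10 member probe sets above the floor, under 5 scalings (symbols), with the array type in parentheses; loricrin has its own panel with a wider axis and dashed lines mark 2-fold. Loricrin stays between -4.37 and -3.67, and Rptn and Kprp stay above 0, while the probe sets of Flg, Crct1, Krtdap, Sbsn, Cnfn and Cdsn change sign between scalings.

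Other genes that build or process the envelope were counted from lists drawn up with earlier results of these data known. Of all probe sets 2.09% on the first type (0.869% higher) and 3.32% on the second were past 2-fold. A count of 0 in a short list is thus no result about it. Among envelope scaffold and precursor genes on the first type, 3 of the 11 above the floor were at least 2-fold higher and 0 lower, while Sprr2f and Dmkn were below it on both arrays, with a median log2 ratio of -0.16. The 3 were the small proline-rich envelope precursors Sprr2e, 6432 against 2844 or 2.26-fold, Sprr2h, 2.38-fold, and Sprr2i, 2.67-fold. The early envelope scaffold protein involucrin (Ivl), named after its value was seen, stood at -0.91. Of 3 above the floor on the second type 0 passed, with Lce1f at -0.28 and Lce1a1 at -0.32, both late envelope proteins. Of the fused S100 genes beside Flg and Rptn, trichohyalin (Tchh) was the only one listed on the first type, at 85.7 and 92.1, just above the floor. Cornulin (Crnn), on the second type, was above the floor on the knockout array only. None of the 3 cross-linking and deimination genes above the floor on at least 1 array of the first type passed 2-fold, and none of 2 on the second. Padi2 and Padi3, which deiminate proteins, were below the floor on both first-type arrays. Bleomycin hydrolase (Blmh), which takes part in filaggrin breakdown, stood at -0.34, and the transglutaminase Tgm3 at 0.60 and 0.29 on the first and second type.

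Of the proteases and inhibitors, 0 of 8 on the first type and 0 of 6 on the second passed, with medians of -0.32 and -0.14. Beside the shares of 2.09% and 3.32% over all probe sets, these counts of 0 are no result about the list. Asprv1, a protease that processes filaggrin, had a log2 ratio of -0.60, and Casp14, a caspase that acts on filaggrin units, -0.0048. Klk7 and Klk5, kallikreins that cleave corneodesmosin, stood at -0.42 and 0.15. Among 7 transcription factors of differentiation on the first type 1 passed, Trp63, which was 2.09-fold higher, and 0 of 6 passed on the second. Of the genes between Lor and Rptn on chromosome 3 that are not members, 12 of 44 had a probe set on the first type, 10 of them above the floor, and the same 3 Sprr2 genes passed. The median of the 10 was 0.85, beside log2 ratios of -4.36 for Lor, -0.51 for Crct1, -0.39 for Flg and 0.57 for Rptn in the same stretch. On the other array type 9 of the 44 had a probe set, 0 passed and the median of the 8 above the floor on at least 1 array was -0.27, beside 0.03 for Kprp. Probe sets of the Sprr2 and Lce families share sequence, so the value of a single gene in them is uncertain.

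Scaling set the sign of most ratios near 0. On both types the 2 arrays had nearly the same 2% trimmed mean as deposited, between 499.8 and 499.9. The mean log2 ratio of 9 bacterial spike-in probe sets was -0.69 and -0.65 on the first and second type, and scaling by these shifted the median over measured probe sets to 0.69 and 0.63. The share of calls that were higher in knockout went from 41.7% to 96.6% and from 44.7% to 95.9%. Each ratio here is thus stated against the bulk of its array.

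The knockout and wildtype arrays also differed in other transcripts. Of all first-type probe sets, 1.22% were at least 2-fold lower in knockout and 0.869% higher. Dermal fibroblast markers were at least 2-fold lower in knockout for 4 of 6 genes on the first type (summed signal 3869 against 6857). Of these, Col3a1, Lum and Pdgfra lay below the floor on the knockout array, so their ratios are bounds. Col1a1, at -3.17, was above it on both arrays. Of the remaining fibroblast markers, Dcn hardly differed, at -0.05 (signals of 2462 and 2556). The Col1a2 probe sets disagreed. The brighter, used for the gene, carries the suffix _r and stood at 0.0069. The other, without that suffix, stood at -3.66, so whether Col1a2 was lower in knockout is not settled. Red cell markers were at least 2-fold lower for 3 of 3 (5464 against 21671), Alas2 as a bound. Among basal epidermal markers 2 of 6, Trp63 and Itga6, were higher (3043 against 1644), and Itgb4 stood at a log2 ratio of 0.04. Krt5 and Krt14, which define basal keratinocytes, and Krt15 were below the floor on both arrays. Krt15 of the second type read 26582 and 22304, so a signal below the floor on the first type does not show that a transcript was absent. All 5 skeletal muscle markers and the 3 markers of simple epithelia were below the floor on the first type. The part of these differences in the members' ratios was not tested. Xist, transcribed from the inactive X chromosome, was at 857 on the first knockout array and 24.7 on its wildtype partner, and Eif2s3y, a Y-linked gene, at 42.7 and 1071. Y-linked Kdm5d was at 12.2 and 976 on the second pair, with the knockout signal below the floor of 133. Xist there read 129 and 12.5, both below the floor, so of these genes Kdm5d alone differed on that pair. On the first pair Kdm5d read 8.56 and 37.0, both below the floor. Sex and genotype cannot be told apart for any member.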

How the data were processed

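The authors deposited array intensity values, 1 linear signal for each probe set, produced by MAS5 according to the submitters' processing notes. Which version, scaling target and detection calls they used is not given in the sources used here. Columns were matched to samples by name. For each type both arrays were brought to the same 2% trimmed mean, signals under the mean of their 40th percentiles were raised to that floor, and log2 ratios were taken (Python 3.11.15, numpy 2.4.6, pandas 2.3.3). The 66 controls per type entered the scaling only. Genes were named from probe sets with 1 platform symbol (10833 and 10581), updated through the gene identifier. A gene with several probe sets took the brightest. Lists name their members past 2-fold or else their 2 brightest members. Loess used a span of 0.4 (statsmodels 0.14.6). The number of arrays limits the precision. No member lay on both types, so the planned limma comparison gave no result. Apart from the word replicate in the labels of the second type, nothing says that the arrays held separate animals. Steps were tested on simulated arrays with known fold changes and a constant offset between the arrays. Spike-in scaling and the values as deposited were not required to recover those changes. The simulation held no shift that varies with signal, so it does not tell which scaling is right here. Members and lists were chosen with earlier results of these data known, and the comparison with the brightest 1%, the probe set suffixes and the Lor to Rptn stretch were added later.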

Additional observations from a re-analysis of the deposited data

How the results depend on the processing

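The member ratios and counts under the values as deposited, the median ratio set to 0, a 20th or 60th percentile floor and no floor with a pseudocount of 1 moved by less than the disagreement between probe sets. The median log2 ratio of the 6 first-type genes, -0.45, became 0.11 under quantile normalization, -0.022 under loess and 0.23 under spike-in scaling, and without loricrin -0.39 became 0.13, -0.0044 and 0.29. The second-type median of -0.08 became 0.57 under spike-in scaling. The count of first-type genes past 2-fold rose from 1 to 2 under spike-in scaling, through Rptn. It stayed at 1 with a 1.5-fold rule and with the median over probe sets. The 1.5-fold count does not set the other members clear of that size. The second Crct1 probe set, not used for its gene, was 1.53-fold lower. Krtdap, 1.498-fold lower, and Rptn, 1.486-fold higher, lay just under it. The share of all probe sets past 1.5-fold is not given here. Spike-in scaling adds 1 constant per type by construction, and the cause of the other shifts was not tested. Of the values of single member probe sets under an alternative, 60 moved by less than that disagreement and 20 by more, 5 each under loess and quantile normalization and 10 under spike-in scaling, where Rptn newly passed 2-fold. Over all first-type probe sets 108 calls were higher and 151 lower, but 434 and 700 for a 20th percentile floor, 40 and 40 for the 60th, 833 and 1263 with no floor, and 1432 and 51 under spike-in scaling. On the second they were 184 and 228, against 732 and 819, 38 and 58, 1246 and 1361, and 1415 and 60. No paired analysis was possible because no member gene was on both array types and each type held 1 array per genotype. For the same reason the limma fit and leaving out an array were not run. Signal over background limits the second Lor and Flg probe sets, which lie below the floor.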
